A study of Mus musculus with 23 samples.

Results

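The vomeronasal receptor genes of the mouse were examined in a survey of captured methylated DNA from heart and spleen. The rows were chosen by gene symbol alone, as every window at a gene start whose symbol begins with Vmn1r or Vmn2r. This gave 535 of 41388 windows, 317 for Vmn1r and 218 for Vmn2r, of which 110 and 96 carry the pseudogene suffix -ps. Male C57Bl/6 mice, all individually housed, were compared in 3 groups. One group ate a control diet without resistant starch, one ate a diet high in resistant starch (high fibre), and one drank 100 mM magnesium acetate. All mice were to receive a minipump, whose content and the age of the mice are not given in the labels, and the diets began 3 weeks before that surgery. Sheared genomic DNA of the left ventricle or spleen was passed over a methyl-CpG binding protein (MethylMiner) and sequenced, so a window's reads grow with the number of methylated CG dinucleotides in it and with the amount of such DNA. Heart had 4 control, 4 high fibre and 3 acetate libraries, and spleen had 4 libraries of each. Whether the libraries of a group stand for different animals is not in the labels. All p-values therefore measure library-to-library spread, which may be technical.

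Vomeronasal receptors are G protein-coupled receptors of the sensory neurons of the vomeronasal organ, which detects pheromones and other social odours. Vmn1r receptors are small, have no intron in the coding region, work with the G protein subunit Gnai2 and bind small molecules such as sulfated steroids. Vmn2r receptors have a long extracellular domain, work with Gnao1 and bind peptides and proteins of urine and tears. A neuron expresses 1 or a few of them, and the genes lie in large tandem arrays with many pseudogenes. Heart and spleen are not places where these receptors are known to act, so the windows describe methylated DNA at genes of another tissue.

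The promoters of the members are poor in CG, the dinucleotide that the capture reads when methylated. CG was counted in promoters only, not over the full windows. RefSeq promoters of build GRCm38.p6, running from 250 bases before to 50 bases after the start, were matched by symbol for 181 Vmn1r and 113 Vmn2r windows. The motif counted was CG, which reads the same on both strands. The median promoter held 1 CG in both families, with a range of 0 to 6 in Vmn1r and 0 to 4 in Vmn2r. Over all 17608 windows with a promoter the median was 13. Promoters with at most 2 CG made up 81.2% of Vmn1r, 81.4% of Vmn2r and 18% of all windows. No CG at all was found in 43 Vmn1r (23.8%) and 32 Vmn2r (28.3%) promoters, against 4.76% of all windows with a promoter. Over all 32851 promoters, which include several for some genes, 94.6% held at least 1. Olfactory receptors, the largest chemoreceptor family, also had a median of 1, and zinc finger (Zfp) genes, another family in tandem arrays, had 15.

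Below are the 250 bases before the start, as the promoter table places it, for the named member with the most CG in that stretch and one without any in each family. They show how far promoters differ in CG, while the assay captures methylated CG over the whole window. Capitals mark CG, and all are GRCm38 in 5′ to 3′ direction.
Vmn1r54, chr6:90268856-90269105, + strand: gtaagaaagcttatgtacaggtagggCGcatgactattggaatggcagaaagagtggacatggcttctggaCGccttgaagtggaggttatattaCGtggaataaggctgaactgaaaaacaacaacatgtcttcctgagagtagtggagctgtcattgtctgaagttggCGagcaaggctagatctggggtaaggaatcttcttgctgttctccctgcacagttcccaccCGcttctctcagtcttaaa
Vmn1r194, chr13:22243965-22244214, + strand: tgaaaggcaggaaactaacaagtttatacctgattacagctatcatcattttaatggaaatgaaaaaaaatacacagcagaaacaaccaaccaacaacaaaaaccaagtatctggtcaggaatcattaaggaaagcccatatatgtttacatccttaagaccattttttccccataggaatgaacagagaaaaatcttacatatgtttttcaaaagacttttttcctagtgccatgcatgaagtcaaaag
Vmn2r1, chr3:64081392-64081641, + strand: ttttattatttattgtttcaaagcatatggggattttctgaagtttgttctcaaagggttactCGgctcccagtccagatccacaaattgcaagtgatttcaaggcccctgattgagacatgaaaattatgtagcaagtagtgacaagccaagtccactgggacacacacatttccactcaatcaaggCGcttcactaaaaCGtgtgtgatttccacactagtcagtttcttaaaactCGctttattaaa
Vmn2r101, chr17:19576981-19577230, + strand: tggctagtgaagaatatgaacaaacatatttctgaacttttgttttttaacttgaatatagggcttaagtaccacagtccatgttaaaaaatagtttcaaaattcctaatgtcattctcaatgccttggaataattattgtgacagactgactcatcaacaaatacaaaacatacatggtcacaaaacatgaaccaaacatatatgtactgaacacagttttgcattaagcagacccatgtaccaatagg

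Vmn1r54 has 5 CG in the printed stretch and Vmn2r1 has 4, while Vmn1r194 and Vmn2r101 have none. The start used for Vmn2r1 lies inside the span RefSeq gives for the whole gene (chr3:64078172-64220847), not at its first base. Among Vmn1r promoters, CG number and normalised read count in control heart had a Spearman rho of -0.27 over 181 windows. Among Vmn2r promoters rho was 0.20 over 113 windows. These windows share libraries and related sequences, so both values are descriptions, and they differ in sign.

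Reads were few in these windows. The 11 heart libraries held 4.12 to 8.60 M (mega) counts and the 12 spleen libraries 4.36 to 9.87 M. Gm10800, a predicted gene in repeat sequence, took 36.8 to 50% of counts in control heart, 17.3 to 21.3% in high fibre heart and 48.2 to 61.2% in spleen. In acetate heart it took 42.4, 37.0 and 22.1% in replicates 1 to 3. Acetate heart replicate 1 stood apart from the other heart libraries: its median count over all windows was 26, and 61 Vmn1r and 49 Vmn2r windows had no read in it. As a check of the tissue labels, 6 of 8 cardiomyocyte marker genes had less captured DNA in control heart than in control spleen. The other 2, Actc1 and Nppa, had more. Of 7 tested lymphocyte marker genes 5 had more and 0 less. By the same edgeR test, described below, 40% of all windows were higher in heart and 32.7% lower.

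The share of a library that fell in these windows is given by its values, with no test, since the members were chosen with results known. Vmn1r windows took 0.0676, 0.107, 0.0731 and 0.101% of counts in control heart replicates 1 to 4. They took 0.196, 0.216, 0.212 and 0.256% in high fibre heart, and 0.0479, 0.135 and 0.160% in acetate heart. Every high fibre library was above every control and acetate library. For Vmn2r the control mean was 0.0560% ± 0.0128 (SD, n = 4), the high fibre mean 0.148% ± 0.0172 (n = 4) and the acetate mean 0.0756% ± 0.0395 (n = 3). In spleen, the Vmn1r share was 0.0301% ± 0.00591 with the control diet, 0.0301% ± 0.00227 with high fibre and 0.0398% ± 0.00785 with acetate (n = 4 each). Every acetate spleen library was above every high fibre one, at 0.0339 to 0.0514% against 0.0267 to 0.0316% for Vmn1r and 0.0292 to 0.0370% against 0.0241 to 0.0291% for Vmn2r. Because Gm10800 alone moves such shares, they were also taken outside the 5 largest windows of each tissue. Vmn1r then took 0.132 to 0.184% in control heart and 0.252 to 0.324% in high fibre heart. The order of these 2 groups was kept, with a smaller gap, while acetate and high fibre spleen overlapped in both families.

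**Figure D1:**
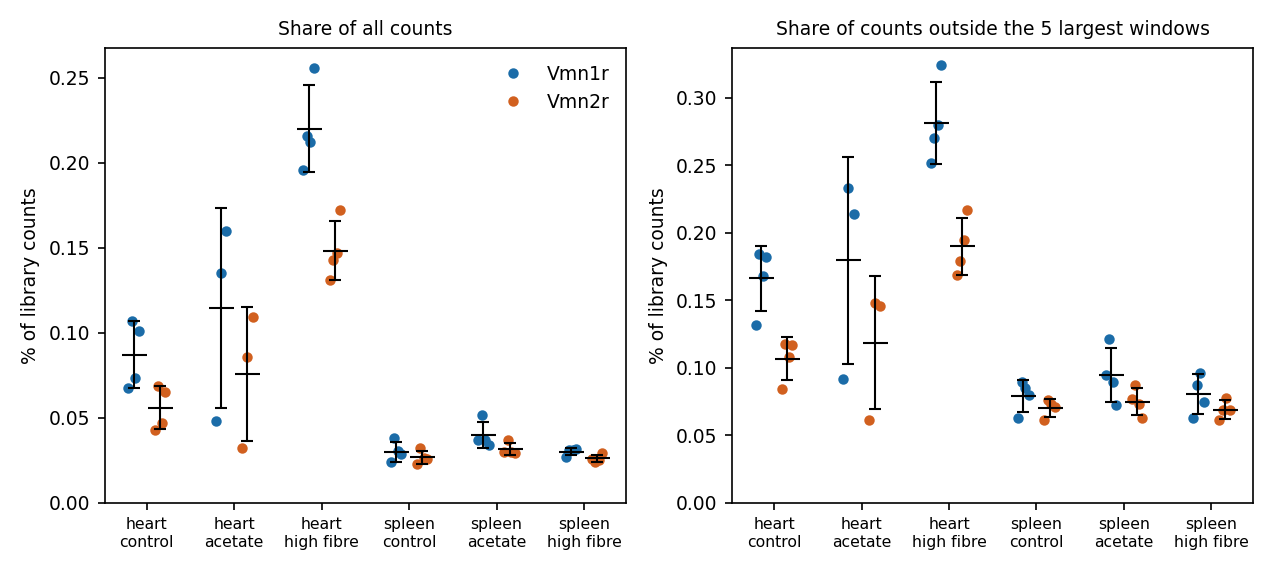
Share of library counts (%) in Vmn1r and Vmn2r windows, 1 point per library, with mean and SD as black bars, for all counts (left) and for counts outside the 5 largest windows (right). In heart all 4 high fibre points lie above all control and acetate points of the same family; in spleen acetate lies above high fibre without overlap in the left panel, and all 3 diets overlap in the right one.

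Low depth left part of the families untested. In heart, 28 members (18 Vmn1r and 10 Vmn2r) had no read in any library, which over 62.94 M counts allows at most 0.0477 counts per M, counting error only. The filter on low counts (edgeR filterByExpr, minimum count 10) passed 265 Vmn1r (83.6%) and 180 Vmn2r (82.6%) windows, against 81.1% of all windows. In 4 Vmn1r and 3 Vmn2r of these, no library outside 1 diet group reached the cut-off. Windows carried by 1 group with a single library of another above the cut-off are not in that count, so more members may depend on 1 group. In spleen it passed 67 Vmn1r (21.1%) and 33 Vmn2r (15.1%), against 60.1% of all. The median total count per window over heart libraries was 269 for Vmn1r, 230 for Vmn2r and 570 for all windows. In spleen it was 39, 31 and 225. Levels below are CPM, counts per M counts of a library after TMM scaling, which sets the bulk of windows to no change.

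Members with near-identical copies held fewer reads, a relation that was not tested. Of 60 members whose promoter was at least 99% identical to that of another member, 9 had no read in any library and the median heart total was 58. Of 148 members with a best identity under 90%, 1 had no read and the median was 275. How reads with several equal alignments were counted is not stated, so values of members with such copies, Vmn2r44 (99.3% identical to Vmn2r31) and Vmn2r116 (98.0% to Vmn2r112) among them, are uncertain. None of the 507 members with reads shared its counts with another in all libraries, and the other 28 had 0 in every library of both tissues.

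On the control diet, levels within a family ranged widely. The highest Vmn1r windows in control heart were Vmn1r1 with 16.6 ± 1.97 CPM and Vmn1r-ps1 with 11.7 ± 3.44 (n = 4). The highest Vmn2r windows were Vmn2r-ps62 with 18.6 ± 3.38 and Vmn2r82 with 18.3 ± 2.12. The libraries of Vmn1r1 ran from 14.5 to 18.6 and those of Vmn1r-ps1 from 7.9 to 15.3, so they overlapped, and the highest pair of Vmn2r windows differed by less than their SD. The lowest tested were Vmn1r-ps109 with 0.314 ± 0.379, Vmn1r-ps67 with 0.614 ± 0.544, Vmn2r-ps19 with 0.566 ± 0.535 and Vmn2r-ps131 with 0.729 ± 0.123. In control spleen the highest were Vmn1r45 with 14.4 ± 2.27, Vmn1r-ps48 with 11.7 ± 1.33, Vmn2r-ps62 with 23.5 ± 2.11 and Vmn2r44 with 14.5 ± 4.39. The lowest tested in spleen were Vmn1r51 with 0.598 ± 0.322, Vmn1r234 with 0.713 ± 0.693, Vmn2r2 with 0.536 ± 0.206 and Vmn2r-ps33 with 0.826 ± 0.908. Vmn2r2 was thus among the lowest tested windows of spleen, while in heart it had 8.27 ± 1.28 CPM.

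The study asked if high fibre feeding alters DNA methylation in heart. Captured DNA rose at 121 of 265 tested Vmn1r windows (45.7%) and fell at 0 of them, by the quasi-likelihood test of edgeR with Benjamini-Hochberg adjustment over all windows at 0.05. It rose at 94 of 180 Vmn2r windows (52.2%) and fell at 1. Of all tested windows 12.6% rose and 13.6% fell, 26.2% in either direction. The median log2 fold change was 0.73 for Vmn1r (10th to 90th percentile 0.10 to 1.34) and 0.92 for Vmn2r (0.26 to 1.41), against 0.02 for all windows. It was above 0 for 93.6% of Vmn1r and 95.6% of Vmn2r windows. Every high fibre library lay above every control library at 150 Vmn1r (56.6%) and 104 Vmn2r (57.8%) windows, against 16.6% of all windows. Without the filter, which keeps 299 Vmn1r and 208 Vmn2r windows, the medians were 0.66 and 0.89.

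**Figure D2:**
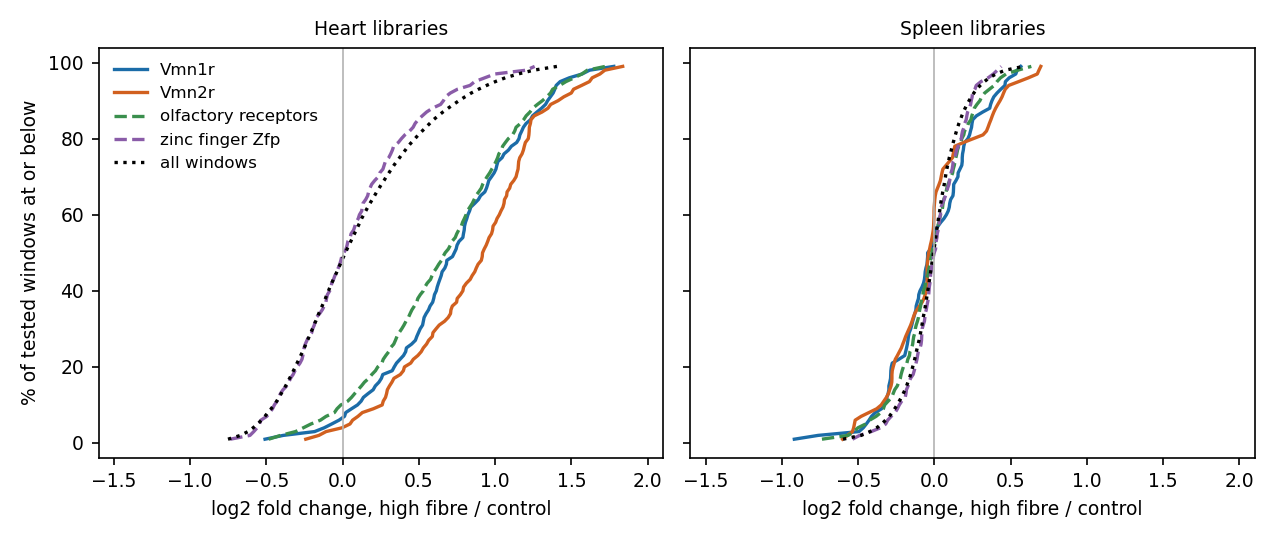
Cumulative distribution of log2 fold changes, high fibre against control, in heart (left) and spleen (right): the vertical axis is the % of tested windows at or below the value on the horizontal axis. In heart both vomeronasal families and the olfactory receptors lie right of all windows and of the zinc finger genes, with medians of 0.73 and 0.92 for Vmn1r and Vmn2r that turn to -0.06 with 1 surrogate variable in the design; in spleen all 5 curves cross near 0.

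Among Vmn1r genes, which encode receptors of small molecules, Vmn1r74 (ENSMUSG00000047655, GRCm38 chr7:11846775-11847689) had the smallest p. It had 1.37, 2.47, 1.77 and 2.1 CPM in control heart replicates 1 to 4 and 4.72, 5.79, 9.11 and 10.16 in high fibre heart. The groups did not overlap, and the acetate libraries, at 0.298, 2.17 and 4.01, were also below all high fibre libraries. The mean rose from 1.93 ± 0.471 to 7.45 ± 2.60 CPM (log2 fold change 1.79, SE 0.39, adjusted p = 0.00532).

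Vmn1r69 (chr7:10579756-10581487), in the same array, had 5.01, 9.24, 7.76 and 7.24 CPM on control and 14.4, 11.8, 17.8 and 17.6 on high fibre. Again the groups did not overlap, but the acetate values of 3.87, 11.2 and 12.3 reached the lowest high fibre library. Its log2 fold change was 1.06 (SE 0.23, adjusted p = 0.00585). Vmn1r68 rose from 4.71 ± 1.34 to 11 ± 2.87 CPM (1.18, SE 0.26, adjusted p = 0.0062) and the pseudogene Vmn1r-ps47 from 2.52 ± 0.643 to 6.64 ± 1.61 CPM (1.31, SE 0.31, adjusted p = 0.00664). All 4 libraries on high fibre were above all 4 on control in both.

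The 3 Vmn1r genes named here for a reported ligand did not pass the test. Vmn1r49 (chr6:90072086-90073018), a receptor of a urinary ketone, had 0.456, 3.30, 2.44 and 2.86 CPM on control and 3.09, 1.99, 8.69 and 7.44 on high fibre. The high fibre libraries split into a pair within the control range and a pair above it (log2 fold change 1.16, adjusted p = 0.0522). Vmn1r85 and Vmn1r89 encode receptors of sulfated steroids. Vmn1r85 had 1.52 to 5.53 CPM on control and 6.27 to 10.8 on high fibre, with no overlap (0.90, adjusted p = 0.0548). Vmn1r89 had 5.99 to 7.44 and 6.18 to 10.31, with overlap (0.32, adjusted p = 0.258).

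Among Vmn2r genes, which encode receptors of peptides and proteins, Vmn2r75 (chr7:86148042-86171724) had 0.456, 2.31, 1.77 and 2.1 CPM on control and 5.09, 6.33, 6.98 and 9.30 on high fibre. The 2 groups did not overlap, and acetate heart, with 0.893, 4.33 and 3.70, reached the lower control values in 1 library and lay between the 2 groups in the others. The log2 fold change was 1.89 (SE 0.40, adjusted p = 0.00517). Vmn2r96 rose from 1.47 ± 0.427 to 5.94 ± 2.06 CPM (1.82, SE 0.45, adjusted p = 0.00655). Vmn2r101, printed above without any CG, rose from 1.5 ± 0.660 to 5.57 ± 1.67 CPM (1.70, SE 0.42, adjusted p = 0.00667).

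Vmn2r1 and Vmn2r2 belong to the small group of Vmn2r genes that many basal vomeronasal neurons express together with another receptor. Vmn2r2 (chr3:64115730-64170917) had 7.29, 9.73, 7.10 and 8.96 CPM on control and 15.4, 16.8, 14.1 and 19.0 on high fibre. No library of control or acetate (4.76, 8.48 and 12.2) reached the high fibre range (log2 fold change 0.95, SE 0.19, adjusted p = 0.00517). Vmn2r1 rose from 2.99 ± 0.623 to 6.24 ± 0.307 CPM (0.98, adjusted p = 0.0247).

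Vmn2r26 (chr6:124024758-124062035), a receptor of peptides presented by MHC molecules, rose from 2.72 ± 0.940 to 5.35 ± 0.778 CPM (0.87, adjusted p = 0.0378). Vmn2r29 (chr7:7212996-7278289) rose from 2.37 ± 0.356 to 5.79 ± 0.896 CPM (1.18, adjusted p = 0.0124). Vmn2r116, the receptor of the tear pheromone ESP1, had 1.67 to 3.55 CPM on control and 3.43 to 5.13 on high fibre, which overlap (0.62, adjusted p = 0.164).

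The single member that fell was the pseudogene Vmn2r-ps62 (chr7:84810427-84810943). Its control heart mean was one of the 2 highest of its family, while on high fibre Vmn2r82 was higher, with 15.4 ± 1.41 against 14.1 ± 2.58 CPM. Vmn2r-ps62 had 23.6, 17.7, 16.9 and 16.2 CPM on control and 14.4, 17.2, 14 and 10.9 on high fibre. The groups overlapped, and the log2 fold change was -0.41 (SE 0.15, adjusted p = 0.0481). The call was lost with DESeq2 (adjusted p = 0.0937), and with library totals as the scale the value was 0.28.

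Pseudogenes and genes without the suffix gave like values. Of the Vmn1r windows, 82 of 173 without the suffix rose (median 0.75) and 39 of 92 with it (median 0.68). Of the Vmn2r windows, 54 of 104 without it rose (median 0.89), and 40 of 76 with it rose and 1 fell (median 0.96). The difference between the kinds was not tested.

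Genes linked to these receptors are given by their counts, to be read against the 12.6% of all windows that rose and 13.6% that fell. Olfactory receptors rose at 535 (43.7%) and fell at 21 of 1223 windows, with a median of 0.67. Bitter taste receptors rose at 14 (43.8%) and fell at 0 of 32 (median 0.70), and trace amine receptors rose at 1 of 16 (6.25%, median 0.22). Exocrine gland-secreting peptides, the ligands of some Vmn2r receptors, rose at 8 of 13 (61.5%, median 0.86), and major urinary proteins, another group of ligands, at 1 of 19 (5.26%, median 0.43). Formyl peptide receptors, some of which serve in vomeronasal neurons, rose at 2 of 6, namely Fpr1 (1.53, adjusted p = 0.00874) and Fpr-rs4 (0.76, adjusted p = 0.0428). The MHC genes of the vomeronasal organ had 0 calls among 8 tested (median 0.25). Of 26 genes of vomeronasal signalling and neurons 1 rose (3.85%) and 6 fell (23.1%), with a median of -0.07, against 0.02 for all windows. Omp, a marker of mature olfactory and vomeronasal neurons, fell from 54.5 ± 5.28 to 34.4 ± 0.729 CPM (-0.66, adjusted p = 0.00565), and Robo2, an axon guidance receptor, rose by 0.41 (adjusted p = 0.0172). The 2 G protein genes did not pass, with -0.29 for Gnao1 (adjusted p = 0.0948) and 0.10 for Gnai2 (adjusted p = 0.715). Zinc finger genes, with 35 up and 45 down of 344, had a median of 0.01.

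Depth, promoter CG content and the Gm10800 share moved with these values, and their part in the result was not tested. Tested windows were split into 10 equal parts by mean level over all heart libraries. The 3 lowest parts, in rising order, held 26.4, 30.6 and 26.8% of Vmn1r and 28.3, 42.8 and 13.3% of Vmn2r windows. Median log2 fold changes in these parts were 0.94, 0.83 and 0.59 for Vmn1r and 1.09, 1.01 and 0.67 for Vmn2r. Other windows had 0.52, 0.54 and 0.38 in the same parts, and -0.27 in the top part. In the lowest part 36 of 70 Vmn1r and 31 of 51 Vmn2r windows rose, against 17.8% of other windows.

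By promoter CG the pattern was alike. Without CG, the members had a median log2 fold change of 0.95 (42 of 72 rose) and other windows 0.54 (251 of 706 rose). With 1 CG the medians were 0.84 and 0.43, with 2 CG 0.79 and 0.22, and with 3 to 5 CG 0.77 and -0.04. At 6 to 10 CG only 1 member lay, Vmn1r54 with 0.19, and other windows had -0.14. In each of these 5 classes the members' value was above that of other windows, a difference that was not tested.

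**Figure D3:**
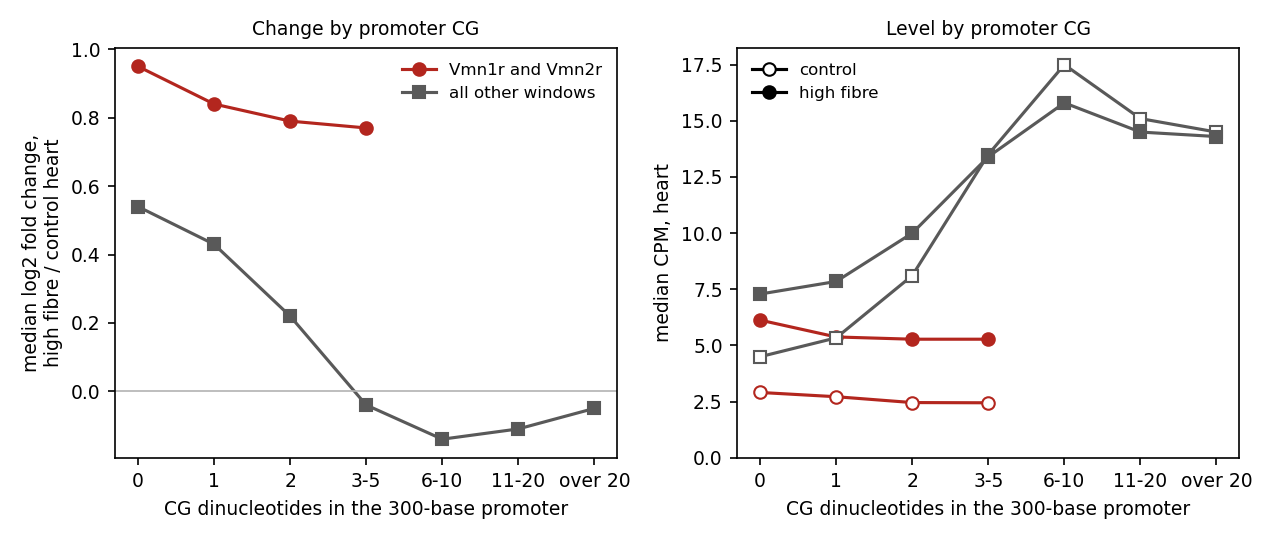
Median log2 fold change, high fibre against control heart (left), and median CPM in control (open) and high fibre (filled) heart (right), by the number of CG in the 300-base promoter, for Vmn1r and Vmn2r together (red circles) and all other windows (grey squares). Classes with under 20 windows are not drawn; members run from 0.95 at 0 CG to 0.77 at 3 to 5 CG, other windows from 0.54 to -0.04.

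The members were also split by their level in control spleen, a measure outside the heart comparison, at limits set after seeing the data. Below 1 CPM in spleen, 106 of 199 Vmn1r and 90 of 150 Vmn2r windows rose in high fibre heart, with medians of 0.83 and 1.01. Median levels on high fibre were 5.1 CPM for these Vmn1r and 4.86 CPM for these Vmn2r windows, the latter from 2.13 on control. At 3 CPM or more in spleen, 5 of 33 Vmn1r rose (median 0.12), and of 23 Vmn2r windows 3 rose and 1 fell (median 0.11). These shares were near the 12.6% of all windows that rose. Other windows were not split by spleen level, but by heart level their median went from 0.52 in the lowest part to -0.27 in the top one. Vmn1r45 (chr6:89931650-89940507), with 14.4 CPM in spleen, had 11 ± 0.981 CPM in control and 11.2 ± 1.08 in high fibre heart (0.02, adjusted p = 0.936). Vmn2r44 had 8.67 ± 2.29 and 7.8 ± 1.5 (-0.15, adjusted p = 0.622).

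Along the genome the rise was spread over the arrays. Member positions, taken from RefSeq GRCm38.p6 by symbol for 525 windows, fell into 32 clusters with gaps of at most 1 Mb. Chromosome 7 carried 141 Vmn1r and 98 Vmn2r windows. Its largest array (chr7:7212996-13244458, 90 windows of both families) had 31 of 70 tested windows up and a median of 0.79. The Vmn2r array at chr7:84810427-87037968 had 24 up and 1 down of 40, with a median of 1.04. The mixed array at chr17:17703941-21323764 had 39 of 57 up, also with 1.04. The Vmn1r arrays at chr13:22057168-23269501 and chr6:56923914-58504695 had 33 of 58 and 22 of 42 up, with medians of 0.81 and 0.78. The Vmn1r array at chr7:20101158-24055691 had the smallest tested share among the 14 clusters with at least 9 windows: 39 of its 77 windows were tested, and 10 of them rose (median 0.62). Every cluster with at least 9 windows had a median above 0, from 0.55 to 1.04.

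**Figure D4:**
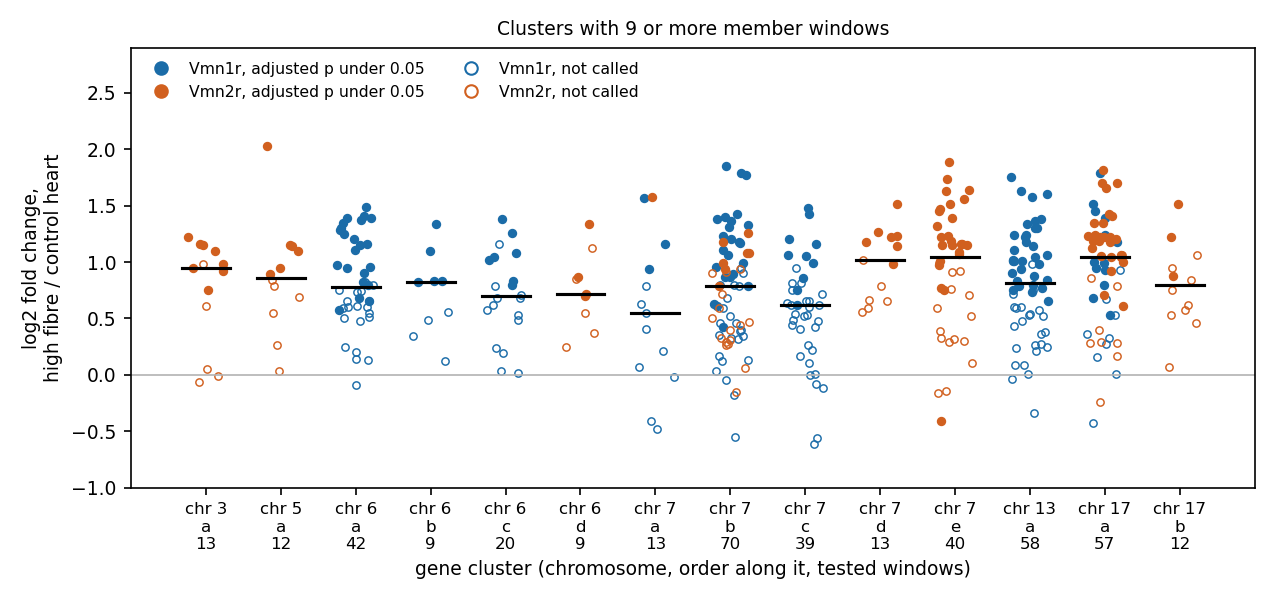
Log2 fold change of each tested member, high fibre against control heart, in the 14 clusters with 9 or more member windows (chromosome, order along it, number tested); filled points have an adjusted p under 0.05 and black bars are medians. Medians lie between 0.55 and 1.04 in all 14 under TMM scaling, and the filled point below 0 is Vmn2r-ps62.

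A pair of settings bears on all of these calls. With cyclic loess scaling, which removes trends with abundance, 13 of 265 Vmn1r rose and 3 fell (median 0.29) and 11 of 180 Vmn2r rose (median 0.40). Of all windows 5.96% rose and 6.02% fell under that scaling, so the members' share of higher calls was near that of all windows. With 1 surrogate variable in the design 0 of either family were called, where 0.122% of all windows were, and both medians were -0.06. Leaving out control replicate 1 left 26 Vmn1r and 19 Vmn2r calls, with 7.45% of all windows called, and leaving out high fibre replicate 4 left 28 and 20, with 7.74%.

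Acetate in heart gave no call. Of all windows 0.0% passed, and 0 Vmn1r and 0 Vmn2r with edgeR or DESeq2, with 12 and 4 members at an unadjusted p under 0.05 in edgeR, where 2.5% of all windows were. The median log2 fold change against control was 0.18 for Vmn1r and 0.21 for Vmn2r, with 74.7% and 75.6% of windows above 0, against 0.02 for all windows. The members with the smallest p were Vmn1r-ps128 with 1.12 and Vmn2r48 with 1.39 among higher ones, and Vmn1r-ps94 with -0.61 and Vmn2r-ps134 with -0.51 among lower ones (adjusted p = 1.0 in edgeR for each). Without acetate replicate 1, the library that stood apart, 9 Vmn1r and 9 Vmn2r windows were called, all higher, of 269 and 185 tested, where 0.773% of all windows were called higher and 1.27% lower. The medians were then 0.41 and 0.50, against 0.01 for all windows.

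High fibre against acetate in heart gave 0 Vmn1r and 2 Vmn2r calls, where 1.4% of all windows were called, 0.188% higher and 1.21% lower. The 2 were Vmn2r29 (log2 fold change 1.64, SE 0.40) and Vmn2r2 (0.84, SE 0.21), each with an adjusted p of 0.0488 from edgeR. Vmn2r29 had 4.72, 6.87, 5.55 and 6.01 CPM on high fibre and 0.298, 1.62 and 2.47 on acetate, without overlap. Leaving out any high fibre library, or control replicate 2, 3 or 4, ended both calls. Vmn1r74 had 1.52 with an adjusted p of 0.0504. The family medians were 0.54 and 0.66. This comparison shares its high fibre libraries with the first one.

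In spleen no diet comparison gave a call among members or among all windows (0.0% in each of the 3), by edgeR. At an unadjusted p under 0.05 there were 3 Vmn1r and 2 Vmn2r windows for high fibre against control, where 2.02% of all windows reached it, and 4 and 4 for acetate against control (3.51%). High fibre against acetate had 2 and 1 (3.31%). DESeq2 called 0 members in all 3. The median log2 fold changes on high fibre were -0.04 in both families, over the 67 and 33 windows that could be tested. Those on acetate were 0.03 and -0.10. Without the filter, over 289 Vmn1r and 206 Vmn2r windows, the acetate medians were 0.25 and 0.17, against 0.0 for all windows, so the Vmn2r sign turned. In the lowest of 10 equal parts of the tested windows by level, windows outside the families also had an acetate median of 0.24. High fibre against acetate had -0.10 and 0.01 with the filter and -0.23 and -0.22 without it. The members with the smallest p on high fibre were Vmn1r-ps11 (0.55), Vmn1r-ps135 (-0.89), Vmn2r104 (0.36) and Vmn2r-ps117 (-0.64). On acetate they were Vmn1r51 (0.99), Vmn1r88 (-0.47), Vmn2r2 (1.19) and Vmn2r92 (-0.46), and for high fibre against acetate Vmn1r-ps128 (0.98), Vmn1r54 (-0.84), Vmn2r104 (0.47) and Vmn2r-ps94 (-0.80). Vmn1r74, with the smallest p of its family in heart, had 0.671 ± 0.439 CPM in control and 0.285 ± 0.273 in high fibre spleen, below the filter.

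Whether the high fibre change differed between tissues was tested directly, in 1 fit over all 23 libraries. No member passed, and 0.0559% of all windows did. The heart change exceeded the spleen change by a median log2 value of 0.62 in Vmn1r and 0.89 in Vmn2r, against -0.01 over all windows. At an unadjusted p under 0.05 were 40 Vmn1r and 38 Vmn2r windows, and 16.4% of all windows. DESeq2 called 1 of each family, but gave no adjusted p to 186 of 268 Vmn1r and 146 of 184 Vmn2r windows. The smallest adjusted p were 0.136 for Vmn1r-ps50 (difference 1.86) and 0.0963 for Vmn2r-ps117 (1.55). Among negative differences they were 0.172 for Vmn1r56 (-0.77) and 0.377 for Vmn2r25, whose control spleen libraries held 2 reads in all, too few to give a difference of folds. No single member was thus shown to differ between tissues by edgeR, and low spleen counts limit this test.

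The last comparison sets heart against spleen on the control diet, with CPM scaled over both tissues. Captured DNA was higher in heart at 164 and lower at 19 of 268 Vmn1r windows, and higher at 111 and lower at 19 of 184 Vmn2r windows, by edgeR with adjustment over all windows. Of all windows 40% were higher and 32.7% lower, 72.7% in either direction. The medians were 1.20 and 1.19, against 0.19 over all windows and 1.23 for olfactory receptors, but under cyclic loess they turned to -0.13 and -0.20, with 10 Vmn1r up and 53 down and 8 Vmn2r up and 28 down. Under that scaling 23.8% of all windows were called up and 25% down, so the members' shares of lower calls were below that of all windows, and their shares of higher calls too. In spleen alone 67 Vmn1r and 33 Vmn2r windows passed the filter, so most members tested here owe their place to heart reads. Such windows could hardly be called lower in heart. Without the filter the TMM medians were 1.09 and 1.08, against 0.2 for all windows.

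Vmn1r194 (chr13:22244215-22245105), printed above without CG, had 4.46 ± 0.837 CPM in heart and 0.640 ± 0.349 in spleen (n = 4 each, log2 fold change 2.29, SE 0.38, adjusted p = 1.68e-07). Vmn1r33 had 4.70 and 0.679 CPM (2.36), and Vmn1r-ps92 a log2 fold change of 2.36. Vmn1r-ps8 was among the 4 Vmn1r windows with the smallest p, with 0, 2, 1 and 2 reads in the spleen libraries. Vmn2r106 had 4.85 ± 0.597 and 0.491 ± 0.204 CPM (2.69, adjusted p = 3.51e-07), Vmn2r2 5.48 ± 0.847 and 0.802 ± 0.332 (2.44, adjusted p = 8.45e-07), and Vmn2r-ps75 a log2 fold change of 1.97. Vmn2r25 had 2.78 ± 0.71 CPM in heart and 2 reads in all in the 4 spleen libraries, too few for a fold. In these members, picked for the smallest p and low in spleen, heart libraries were the higher ones without overlap. That held at 52.2% of Vmn1r, 44.6% of Vmn2r and 36.2% of all tested windows.

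The members named as lower in heart were well covered in spleen, in the same libraries that gave the calls. Vmn1r-ps18 had 2.93 ± 0.430 CPM in heart and 11 ± 1.31 in spleen (-1.83, SE 0.19, adjusted p = 1.5e-10), and Vmn1r45 7.26 ± 0.644 and 21.5 ± 4.15 (-1.51, adjusted p = 3.01e-09). Vmn1r83 and Vmn1r-ps52 had -1.29 and -1.69. Vmn2r-ps62 had 12.3 ± 2.24 and 34.8 ± 3.59 CPM (-1.47, adjusted p = 2.75e-10), Vmn2r67 4.06 ± 0.649 and 14.1 ± 1.86 (-1.71, adjusted p = 5.22e-10), and Vmn2r44 5.74 ± 1.52 and 21.7 ± 7.40 (-1.82, adjusted p = 1.16e-08). Vmn2r-ps118 had -1.57. Of the genes named for their ligands or roles, Vmn1r85 had 1.57, Vmn1r89 1.94, Vmn2r1 1.89, Vmn2r26 1.38, Vmn2r29 1.71 and Vmn2r116 1.48, all higher in heart, and Vmn1r49 had 0.89 (adjusted p = 0.112). Under cyclic loess these 6 calls were lost.

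**Figure D5:**
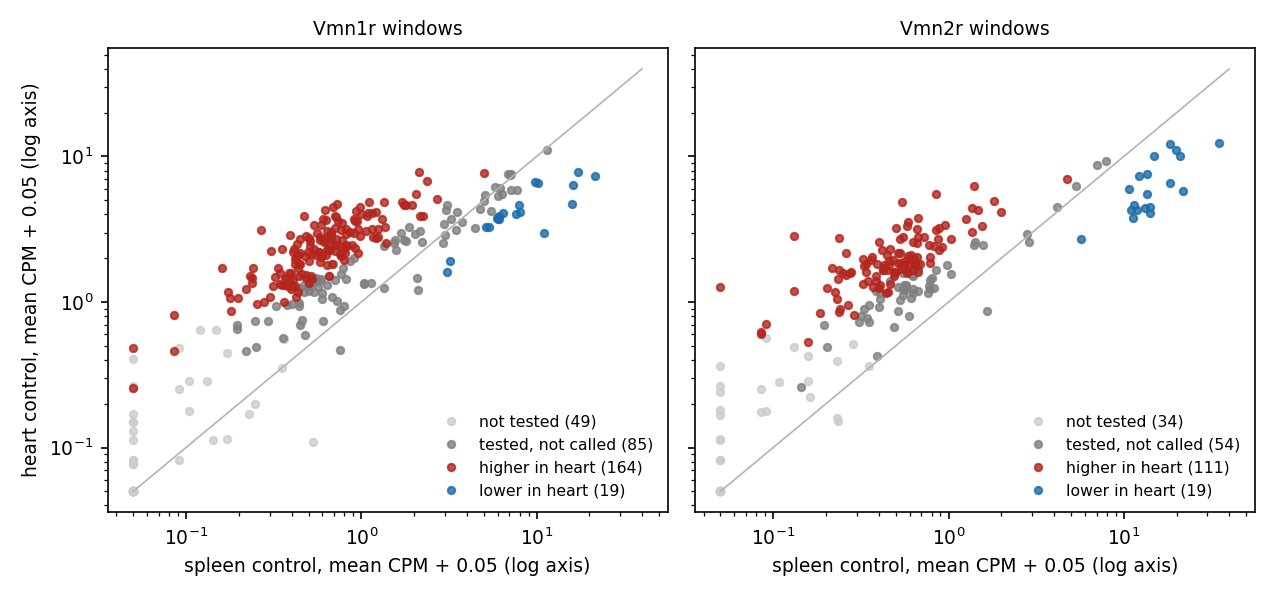
Mean CPM + 0.05 in control heart against control spleen, log axes, 1 point per window, scaled over both tissues by TMM; the line marks equal levels. Most members lie above it at low spleen levels (164 Vmn1r and 111 Vmn2r called higher in heart). Of those called lower, 17 of 19 Vmn1r and 19 of 19 Vmn2r have at least 3 CPM in control spleen (scaled within spleen), a level from the same libraries that gave the calls. With cyclic loess most member calls are lower in heart.

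By level in both tissues, the members had medians near those of other windows in the low parts and mostly below them further up. In the 3 lowest of 10 parts by mean level over both tissues, the median heart against spleen log2 fold change was 1.06, 1.35 and 1.49 for Vmn1r, 1.08, 1.37 and 1.44 for Vmn2r, and 1.16, 1.4 and 1.5 for other windows. In the next part 25 Vmn1r windows had -0.01 and 5 Vmn2r windows 1.30, against 1.01 for other windows. In the fifth, 11 Vmn1r had -0.29 and 7 Vmn2r -1.25, against 0.48, and in the sixth, 5 Vmn1r had -0.58 and 8 Vmn2r -1.05, against 0.08. These differences between members and other windows were not tested.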

How the data were processed

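The authors deposited counts, raw reads per gene-start window (3 kb, by the table's name) in 1 table per tissue, with 41388 windows in each; every value is a whole number. Per the submitters' processing notes the tools were BWA 0.7.10 and, besides it, edgeR 3.16.5, featureCounts 1.5.1 and bcl2fastq 2.19.1.403, on build GRCm38; the place of the window around the start, and the treatment of duplicate or multiply aligned reads, are not given in the sources used here. There is no input library among the files, so counts give no absolute methylation level. Libraries held 4.12 to 9.87 M counts.

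Counts of all windows were tested in R 4.3.3 with the quasi-likelihood test of edgeR 4.0.16 (TMM, filterByExpr at a minimum count of 10, prior count 2, Benjamini-Hochberg at 0.05), with 1 fit per tissue and 1 over all 23 libraries for heart against spleen and the tissue difference. Log2 fold changes of edgeR were shrunk toward 0 by the prior count, so at few reads they lie nearer 0 than the CPM means imply. Each SE came from the unshrunk value and the test statistic. Scripts were tested on simulated data with changes planted in member windows. Planted 2-fold changes were called at 42% for high fibre against control heart, 33.3% for the same diets in spleen and 21% for heart against spleen. For 1.5-fold changes the values were 7, 6.67 and 0%. Most planted changes were thus missed. The simulated tables held no other changes. In the real data 26.2% of windows were called for high fibre against control heart and 72.7% for heart against spleen. Many calls loosen the adjusted threshold, so the recovery values do not describe those comparisons. Named windows were, per family and comparison, the smallest p values past the threshold (4 in each direction, or 1 in each where none passed), a fixed set with known ligands or roles, and the highest and lowest control levels; others named in the text were picked after their values were seen. The members, lists and named genes were chosen with earlier results of these data known. Alternatives were DESeq2 1.42.0, library totals, cyclic loess with limma 3.58.1, no filter, a replicate block, 1 surrogate variable (sva 3.50.0, heart comparisons and heart against spleen) and each library left out. Same-numbered samples of 2 diets, or heart and spleen with the same title code, were correlated in 9 pairs of groups. The highest value per pair of groups was 0.14 to 0.60 (0.60 for control and acetate heart, 0.52 for control and high fibre spleen), but the lowest was -0.12 to 0.02, so in none was every correlation over 0.1, and the numbers were not taken as pairs.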

Additional observations from a re-analysis of the deposited data

Results flagged for a closer look

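In 163 tests of a gap at the end of a group of 4 libraries, 10 passed Dixon's 95% limit, and chance passes about 1 in 20. Among the shares, high fibre spleen replicate 1 was low for Vmn1r at 0.0267%, and acetate spleen replicate 2 was high for Vmn2r at 0.0370%. Vmn1r51 was high in high fibre spleen replicate 3 at 1.77 CPM. Vmn1r83 was low in control heart replicate 2 at 8.41 CPM, and Vmn2r-ps134 was low in control heart replicate 3 at 4.66 CPM. Vmn2r106 was high in control heart replicate 3 at 8.65 CPM. Vmn2r67 was high in control heart replicate 2 at 7.59 CPM and low in high fibre spleen replicate 2 at 6.81 CPM. Vmn2r-ps117 was high in control spleen replicate 2 at 5.39 CPM and low in acetate spleen replicate 2 at 1.22 CPM.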

How the results depend on the processing

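Counts are given as Vmn1r and Vmn2r. The share of all windows called under an alternative setting is known only where the Results above state it. For every other setting, the counts in this section cannot show whether a shift concerns the members or all windows. High fibre against control heart (121 and 95) went to 0 and 0 with 1 surrogate variable, 16 and 11 with cyclic loess, and 241 and 171 with library totals, which move the median of all windows to 0.69; leaving out 1 library gave 26 to 172 and 19 to 135 (lowest without control replicate 1; without control replicate 3, high fibre replicate 3 and high fibre replicate 4 the counts were 66 and 41, 61 and 43, 28 and 20, and without high fibre replicate 2 there were 56 Vmn2r). High fibre against acetate heart (0 and 2) went to 21 and 9 with library totals, to 14 and 7 with the replicate block, to 5 Vmn1r without the filter, and to 0 Vmn2r with 1 surrogate variable or cyclic loess; DESeq2 gave no adjusted p to any member there. Leaving out 1 library gave 0 to 20 and 0 to 21 there, and 0 to 9 and 0 to 9 for acetate against control. Heart against spleen (183 and 130) went to 57 and 40 with 1 surrogate variable and 63 and 36 with cyclic loess; leaving out 1 library gave 158 to 192 and 104 to 143. The tissue difference (0 and 0) went to 1 and 1 with DESeq2, which gave no adjusted p to 186 and 146 members. It went to 49 and 35 with library totals and 2 and 1 with the replicate block. A block by the code in the sample titles, an alternative added after seeing the data, gave 1 and 1. Leaving out 1 library gave 0 to 2 and 0 to 1 for this difference. Spleen diet comparisons kept 0 calls under all alternatives run.

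The replicate block gave 136 and 116 for high fibre against control heart, where 3 of 4 control libraries correlated best with their own number; the labels do not say that numbers pair libraries. Outside the 5 largest windows, heart shares of control, high fibre and acetate were 0.167, 0.281 and 0.180% for Vmn1r, and 0.107, 0.190 and 0.118% for Vmn2r; in spleen they were 0.0791, 0.0805 and 0.0945%, and 0.0704, 0.0691 and 0.0748%. Signs turned for Vmn2r-ps62 with library totals (0.28), for Vmn1r49 (-0.48), Vmn1r85 (-0.49), Vmn1r89 (-0.30) and Vmn2r116 (-0.13) on high fibre heart with 1 surrogate variable, for Vmn1r49 in heart against spleen with 1 surrogate variable (-0.22) and cyclic loess (-0.59), and for the fitted tissue difference of Vmn2r25, which rests on 2 control spleen reads, with library totals (0.39). The causes were not tested. Spleen counts, a median of 1 to 5 reads per Vmn1r window and library, limit what could be seen there.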
